A study of Homo sapiens with 12 samples.

Results

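The 45 genes described here encode the core machinery that copies chromosomal DNA, together with E2F1, a transcription factor of that machinery. They were selected by gene symbol from the deposited count table, where all 45 were found among 25369 genes. The table held poly(A)+ RNA-seq libraries of 3 human cancer cell lines, with 2 independent biological replicates of each line in normoxia and in hypoxia, which gave 12 libraries in 6 groups. RKO is a colon carcinoma line, A549 a lung adenocarcinoma line and H460 a large cell carcinoma line of the lung. Hypoxia was an atmosphere of 1% O2 for 24 h, and normoxia was the standard incubator atmosphere. No label names a genetic change. All cells were seeded a day ahead and grew in serum-supplemented medium, DMEM for RKO and A549 and RPMI for H460, so that medium and line cannot be told apart in H460. Each line stands for 1 culture model at 1 time point, without stromal or immune cells of a tumor.

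Replication starts at origins, where the origin recognition complex (ORC) together with CDC6 and CDT1 loads the ring-shaped MCM helicase in G1 phase. On entry into S phase the kinase CDC7 with its partner DBF4, and then MCM10, CDC45 and the GINS complex, turn the loaded ring into a running helicase. Polymerases, primase, the sliding clamp PCNA and its loader RFC then copy both strands, and many of these genes are transcribed at the G1/S transition under E2F factors.

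Total counts per library ranged from 27350424 to 41757584, and all 45 genes passed the filter on low counts in every line. The spread between replicates exceeded counting error (chi-square of 10.1 to 79.1 for each degree of freedom), and the biological coefficient of variation was 7.91% in H460, 15% in RKO and 18.9% in A549. In A549 the replication genes were higher in replicate 1 than in replicate 2, in 35 of 45 genes in normoxia and 44 of 45 in hypoxia, with a median log2 difference of 0.34 and 0.57. The corresponding numbers of genes were 22 and 17 in RKO and 14 and 15 in H460. The hypoxia genes CA9, NDRG1, PDK1, SLC2A1 and VEGFA were called higher in hypoxia in every line, 5 of 5. Of the colon markers, RKO had CDX2 (9.68 to 17.0 CPM, counts scaled to a common library size), whereas KRT20, VIL1, CDH17 and LGALS4 were at or near 0. Of 5 lung markers, A549 had NAPSA (3.33 to 4.91 CPM), and SFTPB, SFTPC and SFTA3 were at or near 0 in A549 and H460. KRT8, KRT18, EPCAM and CDH1, the general epithelial markers, summed to 2495 to 3188 CPM in A549, 907 to 1187 CPM in H460 and 109 to 214 CPM in RKO. The blood cell markers PTPRC, CD3E and HBB were at or near 0 in all libraries, while CD14, another marker of that list, was at 5.70 to 10.3 CPM in A549, at 5.02 CPM or above in H460 and near 0 in RKO.

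The promoters of 39 of the 45 genes were available as RefSeq sequences running from 250 bases before to 50 bases after the start, and each matched GRCh37 exactly once. They were searched on both strands for the E2F sites TTTCCCGC, TTTCGCGC, TTTGCCGC and TTTGGCGC. Such a site was found in 21 of 39 replication promoters (53.8%), against 1090 of 27305 genes with a promoter of the same length (3.99%) and 6.47% to 6.75% of such genes among those tested in each line. The promoters of the 4 genes with the lowest fold changes in H460, and that of CDT1, which carries a site but had a higher value in hypoxic H460, are shown with the E2F sites in capitals. They lie at chr10:13203308-13203607 on the plus strand (MCM10), chr20:32274142-32274441 on the minus strand (E2F1), chr1:36235530-36235829 on the minus strand (CLSPN), chr2:136633964-136634263 on the minus strand (MCM6) and chr16:88869947-88870246 on the plus strand (CDT1), all on GRCh37 and written 5′ to 3′ in the direction of the gene.
MCM10: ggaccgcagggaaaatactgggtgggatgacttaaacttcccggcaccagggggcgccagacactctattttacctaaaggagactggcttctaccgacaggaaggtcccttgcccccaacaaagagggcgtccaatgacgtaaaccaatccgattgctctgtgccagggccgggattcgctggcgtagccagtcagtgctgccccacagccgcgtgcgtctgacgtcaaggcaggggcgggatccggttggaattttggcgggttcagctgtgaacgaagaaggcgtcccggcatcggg
E2F1: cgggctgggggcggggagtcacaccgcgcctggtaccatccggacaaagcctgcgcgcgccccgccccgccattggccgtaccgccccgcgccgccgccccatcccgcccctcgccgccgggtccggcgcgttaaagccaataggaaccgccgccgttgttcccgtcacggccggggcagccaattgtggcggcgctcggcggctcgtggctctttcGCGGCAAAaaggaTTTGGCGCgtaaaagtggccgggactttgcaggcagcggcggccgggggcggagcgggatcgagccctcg
CLSPN: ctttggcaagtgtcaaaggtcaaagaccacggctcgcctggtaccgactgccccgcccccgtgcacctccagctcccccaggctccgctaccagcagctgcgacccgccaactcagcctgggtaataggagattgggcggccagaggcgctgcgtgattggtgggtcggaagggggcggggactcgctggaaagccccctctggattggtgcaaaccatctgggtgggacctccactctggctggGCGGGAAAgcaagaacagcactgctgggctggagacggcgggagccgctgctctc
MCM6: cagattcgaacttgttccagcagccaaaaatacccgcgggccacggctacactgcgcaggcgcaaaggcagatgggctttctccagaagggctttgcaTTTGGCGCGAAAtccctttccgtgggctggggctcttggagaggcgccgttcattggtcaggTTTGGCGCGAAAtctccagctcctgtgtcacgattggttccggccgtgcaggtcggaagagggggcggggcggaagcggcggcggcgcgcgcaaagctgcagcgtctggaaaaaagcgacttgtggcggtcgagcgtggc
CDT1: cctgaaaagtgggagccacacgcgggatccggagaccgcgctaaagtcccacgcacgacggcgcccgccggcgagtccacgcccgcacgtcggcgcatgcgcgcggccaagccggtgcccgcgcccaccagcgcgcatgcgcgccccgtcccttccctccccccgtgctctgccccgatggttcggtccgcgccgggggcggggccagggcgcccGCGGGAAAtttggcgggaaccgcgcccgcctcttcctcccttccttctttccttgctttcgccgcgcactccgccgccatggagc
MCM6 held 4 sites in 2 overlapping pairs, E2F1 held 2 sites starting 33 and 20 bases before the start, and CLSPN and CDT1 held 1 site each. The MCM10 window held none of these exact words. It did hold TTTGGCGG, which departs from TTTGGCGC in the last letter, and such near matches were not counted as sites. A match describes the letters in the window and does not show that a factor binds there.

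Most replication genes were called lower in hypoxia in H460, fewer in RKO and, in the fit without a replicate term, none in A549. In H460 36 of the 45 genes were called lower, which here means a Benjamini-Hochberg adjusted p under 0.1 and a fold change over 1.5 in edgeR's quasi-likelihood test. Of all 14080 genes tested in H460, 27.3% were called lower and 24.6% higher. RFC1 was the 1 replication gene called higher. In RKO 16 of 45 were called lower and 0 higher, where 15.1% and 18.8% of 12817 genes tested were called lower and higher. In A549 0 of 45 were called in either direction, where 0.456% and 2.22% of 14251 genes were called lower and higher. The 45 genes had a median log2 fold change of -1.74 in H460, -0.37 in RKO and -0.34 in A549, while that of all genes tested was -0.04, 0.01 and -0.01. The RKO and A549 medians were close, and the median standard error of a replication gene was 0.16 in RKO and 0.24 in A549. The numbers of calls alone therefore do not rank the size of the effect in RKO and A549. In bulk RNA, fewer cells in a given phase and less RNA per cell cannot be told apart.

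The reads of the 45 genes made up 0.354% and 0.379% of each H460 normoxia library (replicates 1 and 2) and 0.107% and 0.115% of each H460 hypoxia library. In RKO these shares were 0.546% and 0.588% in normoxia and 0.398% and 0.448% in hypoxia. In A549 they were 0.423% and 0.318% in normoxia and 0.339% and 0.225% in hypoxia, so that the A549 groups overlapped and the groups of the other lines did not. Scaling by library size alone in place of TMM lowered the fold changes of the tested H460 genes (median shift -0.35 log2 units, with 0.08 for RKO and -0.09 for A549), so that each change is relative to TMM scaling.

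**Figure D1:**
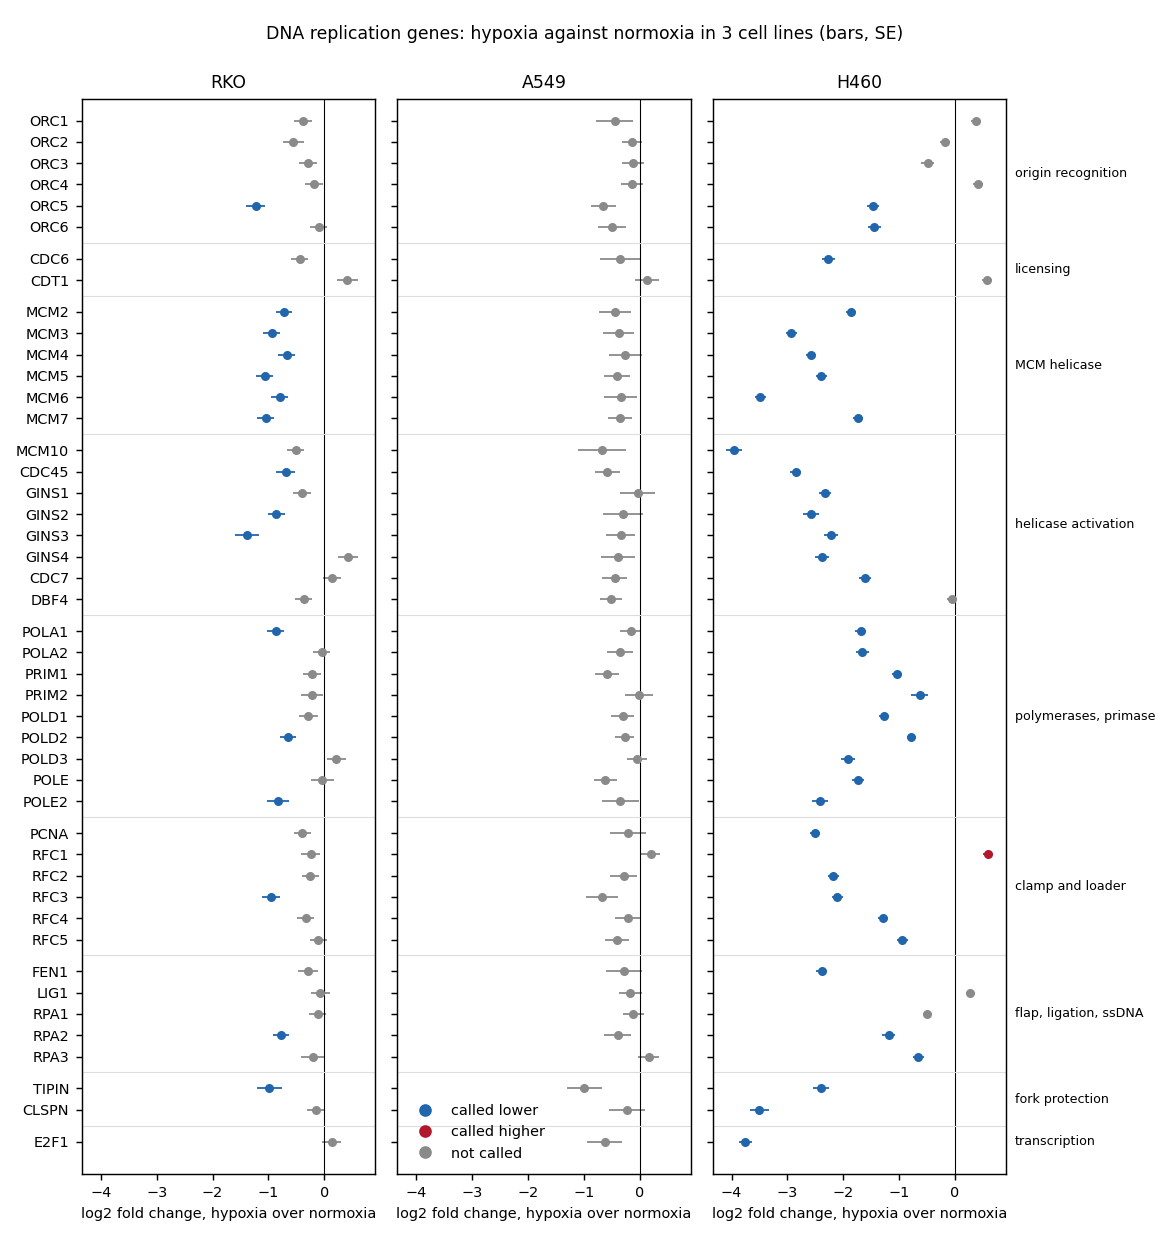
Log2 fold change of hypoxia over normoxia with its standard error (bars) for each of the 45 replication genes, ordered by role, in RKO, A549 and H460 (2 libraries per group). Blue points were called lower, red points higher and grey points were not called; 16 points are blue in RKO, none in A549 and 36 in H460, where RFC1 is the red point.

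The MCM helicase, a ring of 6 different subunits, moved as a block in RKO and H460, where all 6 genes were called lower. In H460 MCM6 (chromosome 2, 136597196 to 136634047) had 136 and 140 CPM in normoxia and 12.1 and 12.5 CPM in hypoxia. This 11.2-fold fall was the largest of the ring (log2 fold change -3.48 ± 0.10 SE, adjusted p = 3.96e-10, n = 2 libraries per group in edgeR). MCM3 went from 174 and 186 to 22.2 and 25.0 CPM (-2.93 ± 0.10), and MCM4 from 144 and 156 to 24.4 and 25.8 CPM (-2.58 ± 0.09). MCM5 had 103 and 109 CPM in normoxia against 20.4 and 19.9 CPM in hypoxia (-2.39 ± 0.09). MCM2 had 73.9 and 71.6 against 20.5 and 19.4 CPM (-1.87 ± 0.09), and MCM7 327 and 341 against 103 and 97.1 CPM (-1.74 ± 0.09). For each of the 6 genes both hypoxic H460 libraries lay far below both normoxic ones, but the size of the fall was unequal, so that subunits of 1 ring changed between 3.34-fold and 11.2-fold.

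In RKO the 6 MCM genes fell by a narrower range, 1.59-fold to 2.09-fold. MCM5 had 153 and 174 CPM in normoxia and 74.8 and 81.4 CPM in hypoxia (-1.07 ± 0.15, adjusted p = 0.000582), and MCM7 731 and 777 against 359 and 370 CPM (-1.05 ± 0.16, adjusted p = 0.000708). MCM3 went from 304 and 321 to 153 and 172 CPM (-0.94 ± 0.15) and MCM6 from 222 and 208 to 123 and 124 CPM (-0.80 ± 0.15). The groups of these 4 genes did not overlap. MCM2 went from 276 and 267 to 171 and 159 CPM (-0.72 ± 0.15) and MCM4 from 631 and 620 to 374 and 411 CPM (-0.67 ± 0.16), again without overlap. The order of the subunits differed from that in H460: MCM6, first in H460, came after MCM5, MCM7 and MCM3 in RKO, where neighbours in the order differed by less than their standard errors.

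In A549 none of the 6 MCM genes was called, and their groups overlapped. MCM2 had 138 and 89.7 CPM in normoxia and 107 and 59.9 CPM in hypoxia (-0.44 ± 0.29, adjusted p = 0.482), and MCM5 142 and 109 against 115 and 73.8 CPM (-0.41 ± 0.24). MCM3 had 169 and 117 against 140 and 81.2 CPM (-0.38 ± 0.27), and MCM7 396 and 313 against 328 and 228 CPM (-0.35 ± 0.22). In each case replicate 2 in normoxia was below replicate 1 in hypoxia. MCM6 had 124 and 83.6 against 106 and 58.3 CPM (-0.34 ± 0.29), and MCM4 309 and 192 against 269 and 151 CPM (-0.26 ± 0.30). Within each replicate number, hypoxia was below normoxia for all 6 genes. The span of MCM7 on chromosome 7 holds the miRNA genes MIR106B, MIR25 and MIR93 on the same strand, and the exon counts of MCM7 give no measure of these miRNAs.

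**Figure D2:**
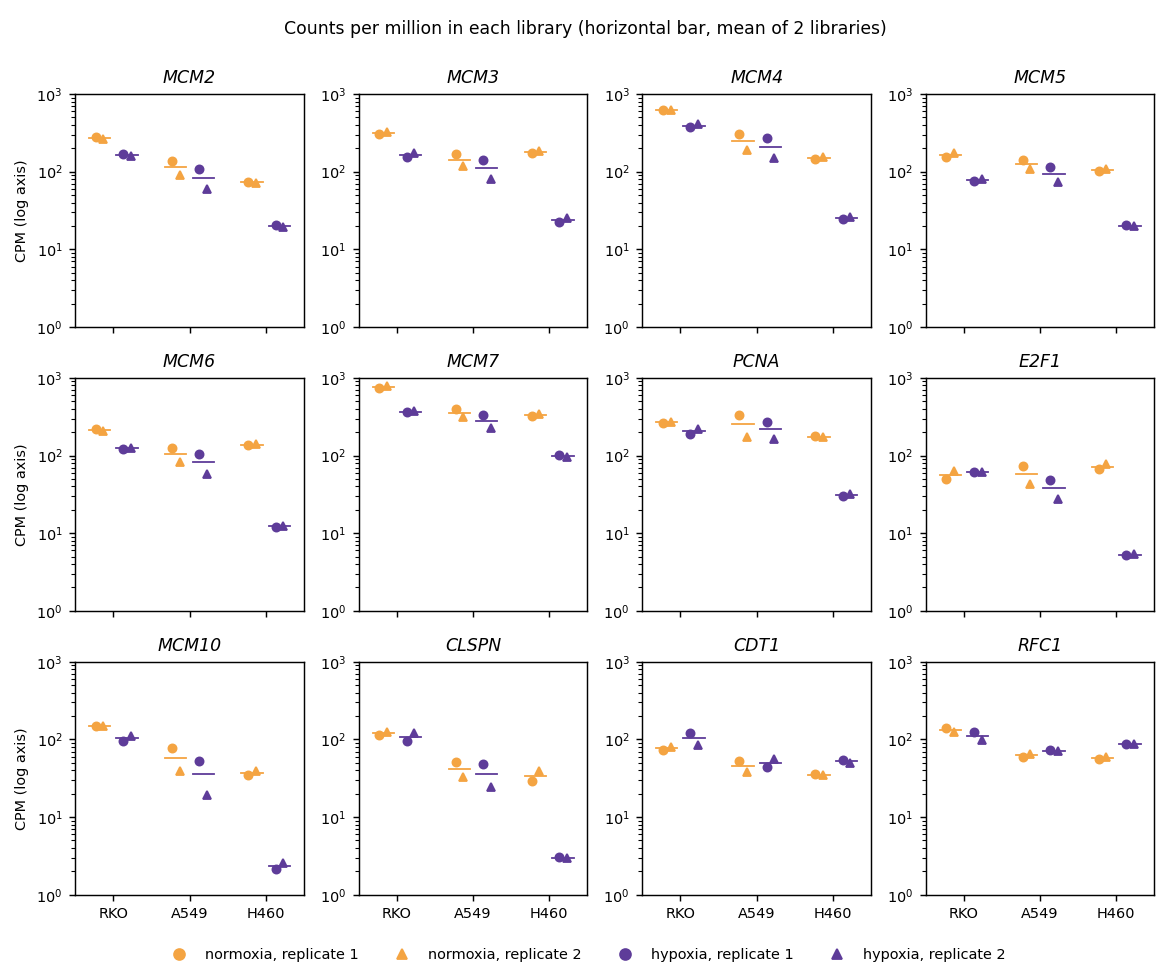
CPM (log axis, scaled by TMM within each line) in every library for the 6 MCM genes, PCNA, E2F1, MCM10, CLSPN, CDT1 and RFC1, with normoxia in orange, hypoxia in purple, circles for replicate 1 and triangles for replicate 2. The H460 hypoxia libraries lie far below the normoxia libraries for the first 10 genes and above them for CDT1 and RFC1, and the A549 replicates are spread widely in both conditions.

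The genes that load the helicase did not move together. Of the 6 ORC genes, ORC5 and ORC6 were called lower in H460 (-1.47 ± 0.10 and -1.44 ± 0.11), whereas ORC1, an ATPase subunit, was at 28.8 and 30.5 CPM in normoxia and 38.2 and 39.0 CPM in hypoxia (0.38 ± 0.09, adjusted p = 0.00289). ORC4 was at 45.5 and 51.0 against 66.0 and 63.0 CPM (0.42 ± 0.09, adjusted p = 0.00166). Both passed the adjusted p but not the fold of 1.5. With library size alone the values of ORC1 and ORC4 were 0.03 and 0.06. ORC2 and ORC3 were not called in H460 (-0.18 and -0.49). ORC5 was the 1 ORC gene called in RKO, from 86.2 and 80.3 to 31.7 and 39.3 CPM (-1.23 ± 0.17, adjusted p = 0.000454), and its A549 values were 43.5 and 48.6 CPM in normoxia and 34.9 and 23.8 CPM in hypoxia (-0.65 ± 0.23, adjusted p = 0.218). The hypoxic ORC5 libraries lay below the normoxic ones in all 3 lines.

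The licensing factors CDC6 and CDT1 differed in sign in H460. CDC6 went from 57.8 and 68.6 to 13.6 and 12.7 CPM (-2.27 ± 0.11, adjusted p = 1.14e-08), whereas CDT1, which escorts the MCM ring to the origin, went from 36.0 and 34.6 to 54.8 and 50.4 CPM (0.58 ± 0.09, adjusted p = 0.000148). The groups did not overlap for either gene, and the CDT1 change stayed just under the fold of 1.5. CDT1 was called higher with RLE scaling, DESeq2, the joint fit of all libraries and without H460 hypoxia replicate 2, and its value was 0.22 with library size alone. In RKO CDT1 had 74.2 and 81.1 CPM in normoxia and 123 and 84.2 CPM in hypoxia (0.41 ± 0.19, adjusted p = 0.103), and in A549 52.9 and 38.6 against 44.7 and 55.6 CPM (0.13 ± 0.22). The RKO groups did not overlap and the A549 groups did. The RKO value was 0.16 without hypoxia replicate 1, and without hypoxia replicate 2 it was 0.68 and CDT1 was called higher.

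Among the 8 genes of helicase activation, 7 were called lower in H460 and 3 in RKO. MCM10, which binds the helicase as it is activated, had the lowest fold change of all 45 genes in H460, with 35.0 and 38.9 CPM in normoxia and 2.14 and 2.58 CPM in hypoxia (-3.96 ± 0.15, a 15.5-fold fall, adjusted p = 1.75e-09). CDC45, a subunit of the running helicase, went from 71.1 and 72.3 to 9.69 and 10.2 CPM in H460 (-2.85 ± 0.10), and from 70.5 and 86.1 to 43.4 and 53.6 CPM in RKO (-0.69 ± 0.17, adjusted p = 0.0102). Neither gene had overlapping groups in H460 or RKO. In RKO the lowest fold change of all 45 genes was that of GINS3, from 40.3 and 40.0 to 12.3 and 18.6 CPM (-1.38 ± 0.21, adjusted p = 0.000833), while its partner GINS4 had 59.9 and 74.6 CPM in normoxia and 78.5 and 103 CPM in hypoxia (0.43 ± 0.18, adjusted p = 0.0815). GINS4 was not called, since its fold was under 1.5, and it was called higher without RKO normoxia replicate 2 or without RKO hypoxia replicate 1. All 4 GINS genes, whose products form 1 complex, were called lower in H460, between -2.22 (GINS3) and -2.57 (GINS2). Of the kinase pair, CDC7 was called lower in H460 (-1.61 ± 0.11) and DBF4 was not (-0.06 ± 0.09, adjusted p = 0.574).

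All 9 polymerase and primase genes were called lower in H460, between -0.63 (PRIM2) and -2.41 (POLE2). POLE2, the second subunit of the leading-strand polymerase epsilon, went from 18.9 and 21.4 to 3.87 and 3.73 CPM, and the catalytic subunit POLE from 237 and 278 to 71.7 and 82.6 CPM (-1.74 ± 0.11). The groups of both genes stood apart. In RKO POLA1, the catalytic subunit of polymerase alpha (-0.87), POLD2 (-0.65) and POLE2 (-0.83) were called lower and the other 6 were not called, with values from -0.29 to 0.22. POLE had 214 and 164 CPM in normoxic and 139 and 108 CPM in hypoxic A549 (-0.61 ± 0.20, adjusted p = 0.200), without overlap.

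The sliding clamp PCNA went from 179 and 173 to 29.8 and 31.8 CPM in H460 (-2.51 ± 0.09, adjusted p = 1.62e-09). In RKO it had 264 and 274 CPM in normoxia against 187 and 223 CPM in hypoxia (-0.39 ± 0.16, adjusted p = 0.0713, under the fold of 1.5), and in A549 333 and 172 against 275 and 164 CPM (-0.20 ± 0.32). The hypoxic libraries were the lower ones in H460 and RKO, and the groups overlapped in A549. The clamp loader subunits RFC2 to RFC5 were called lower in H460 (-0.94 to -2.18), but the large subunit RFC1 had 56.7 and 59.9 CPM in normoxia and 88.5 and 87.1 CPM in hypoxia (0.59 ± 0.09, adjusted p = 6.28e-05). This call stood at the threshold: RFC1 was not called with library size alone (0.24), with limma on RPKM or without H460 normoxia replicate 1. RFC1 was also the highest of the 45 genes in A549, with 60.1 and 64.7 against 72.8 and 70.2 CPM (0.20 ± 0.17, adjusted p = 0.603), and was not called in RKO (-0.24 ± 0.17). RFC3 was the loader subunit called in RKO, from 71.6 and 72.3 to 35.1 and 39.2 CPM (-0.95 ± 0.16, adjusted p = 0.00116), and in A549 it had 58.5 and 46.6 against 42.6 and 23.2 CPM (-0.68 ± 0.28, adjusted p = 0.273).

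Among the factors that finish and protect the new strands, FEN1, which trims flaps of Okazaki fragments, was called lower in H460 (-2.39 ± 0.10). LIG1, the ligase that seals the same fragments, was at 84.8 and 85.6 CPM in normoxia and 102 and 104 CPM in hypoxia (0.27 ± 0.08, adjusted p = 0.0103, not called), and its value turned to -0.08 with library size alone. Of the single-strand binding trimer, RPA2 and RPA3 were called lower in H460 (-1.19 and -0.66) and RPA1 was not (-0.50, a 1.41-fold change). RPA3 was among the 2 highest genes in A549, with 38.8 and 39.1 against 45.9 and 41.2 CPM (0.16 ± 0.19). CLSPN, the checkpoint mediator claspin, went from 29.1 and 38.8 to 3.06 and 2.93 CPM in H460 (-3.50 ± 0.17, adjusted p = 9.05e-09) and was not called in RKO (-0.15 ± 0.16) or A549 (-0.22 ± 0.32). TIPIN, a fork protection factor, was called lower in H460 (-2.40 ± 0.14) and in RKO, from 29.5 and 31.3 to 12.2 and 18.6 CPM (-0.98 ± 0.22, adjusted p = 0.00564). In A549 TIPIN had the lowest fold change of the 45 genes, with 28.1 and 22.1 CPM in normoxia and 16.6 and 8.63 CPM in hypoxia (-0.99 ± 0.31, adjusted p = 0.176). The hypoxic TIPIN libraries were below the normoxic ones in all 3 lines.

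E2F1, the transcription factor, had the largest difference between the RKO and H460 effects of the 45 genes, while MCM6, MCM10 and CLSPN differed slightly more than E2F1 between A549 and H460. In H460 it went from 66.8 and 76.8 to 5.17 and 5.45 CPM (-3.76 ± 0.12, a 13.5-fold fall, adjusted p = 9.33e-10). In RKO it had 49.3 and 64.2 CPM in normoxia and 62.3 and 62.2 CPM in hypoxia (0.13 ± 0.17, adjusted p = 0.569), and in A549 73.0 and 43.3 against 48.0 and 27.5 CPM (-0.62 ± 0.31, adjusted p = 0.354). The groups stood apart in H460 and overlapped in RKO and A549. Leaving out RKO normoxia replicate 1 turned the RKO value to -0.04.

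In A549 the calls depended on the replicate term. The lowest adjusted p of a replication gene was 0.176, 7 genes passed an unadjusted p under 0.05, all lower in hypoxia (6.83% of all genes tested were lower by that rule), DESeq2 called 1 lower (TIPIN, against 1.85% of all genes) and limma on RPKM 0. With the replicate number as a block, 7 replication genes were called lower (TIPIN, MCM10, RFC3, ORC5, E2F1, POLE and PRIM1), where that fit called 5.07% of all genes tested lower. MCM10 had 76.6 and 39.4 CPM in normoxia against 53.0 and 19.5 CPM in hypoxia (-0.68 ± 0.43 without and -0.77 with the block). The groups overlapped, since replicate 2 in normoxia was below replicate 1 in hypoxia. A single library also set the count: without A549 hypoxia replicate 1, 20 genes were called lower, against 5.34% of all genes tested in that fit, and the median was -0.72, without A549 hypoxia replicate 2 the count was 0 and the median -0.06, and without A549 normoxia replicate 1 they were 0 and -0.12. The fibroblast marker COL1A1 also moved in A549, with 48.2 and 85.0 CPM in normoxia and 132 and 432 CPM in hypoxia. The paper counts COL1A1 among its acute response genes, which were induced by hypoxia in HCT116 cancer cells. In A549 COL1A2 and DCN were at or near 0. The 5 fibroblast markers summed to 50.9 to 87.6 CPM in normoxia and 135 to 435 CPM in hypoxia. The part of these markers in the A549 values was not tested.

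Groups without overlap gave a similar picture. In H460 both hypoxic libraries were below both normoxic ones for 39 of 45 replication genes and above them for 5, where 44.6% and 41.8% of all genes tested did so. In RKO the numbers were 32 below and 3 above, against 35.1% and 35.2% of all genes, and in A549 13 and 2, against 24.7% and 25.1%. In RKO 25 genes passed an unadjusted p under 0.05, of which 23 were lower, where 47.5% of all genes tested passed and 23.2% passed and were lower. DESeq2 called 16 lower and 0 higher in RKO, against 14.4% and 17.6% of all genes. At a fold over 2, 4 genes were called lower in RKO, GINS3, ORC5, MCM5 and MCM7, and 32 in H460. The share of all genes at that fold was not computed, so these counts cannot be set against it.

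**Figure D3:**
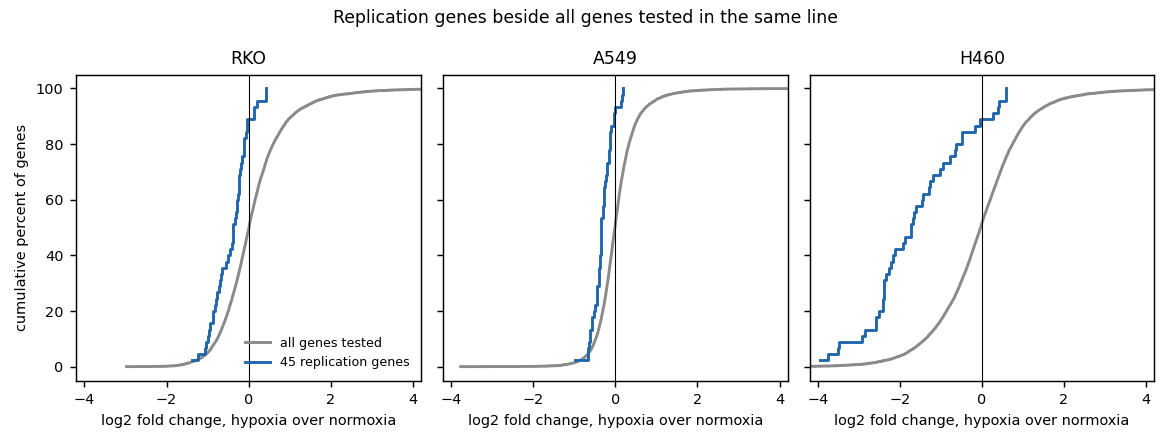
Cumulative percent of genes (y axis) against the log2 fold change of hypoxia over normoxia (x axis) for the 45 replication genes (blue) and all genes tested in the same line (grey). At the median the blue curve lies left of the grey one in each line, with medians of -0.37, -0.34 and -1.74 for the replication genes in RKO, A549 and H460.

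All 16 genes called lower in RKO were also called lower in H460, which is 100% of the RKO list and 44.4% of the H460 list. Over all genes tested in both lines the shares were 59.2% and 34.5%, and 36 of the 45 replication genes were called lower in H460. The 16 genes comprised the 6 MCM genes, CDC45, GINS2, GINS3, ORC5, POLA1, POLD2, POLE2, RFC3, RPA2 and TIPIN. A further 20 genes were called lower in H460 and not called in RKO, including E2F1, MCM10, CLSPN, PCNA, CDC6 and FEN1. ORC1, ORC2, ORC3, ORC4, CDT1, DBF4, LIG1 and RPA1 were called in no line.

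Whether the effect of hypoxia differed between lines was tested by the interaction of line and oxygen in a joint fit of all 12 libraries, at an adjusted p under 0.1. It differed between RKO and H460 for 33 replication genes, where 37.6% of all genes tested differed, and H460 had the lower value for 31 of them. Between A549 and H460 it differed for 36, where 36% of all genes differed, and H460 had the lower value for 33. The interaction of E2F1 was 3.93 ± 0.38 log2 units between RKO and H460 (adjusted p = 1.61e-05) and 3.13 ± 0.37 between A549 and H460, and that of MCM6 was 2.73 ± 0.32 and 3.14 ± 0.33. The effect in RKO minus that in H460 was negative for RFC1 and ORC4 (-0.79 and -0.56 log2 units), and that in A549 minus that in H460 for ORC1, ORC4 and DBF4 (-0.83, -0.56 and -0.46), but none of these 5 differences passed with library size alone. Among the genes that load the helicase, the RKO and H460 effects also differed for ORC6 and CDC6 (1.39 and 1.87). The differences of ORC5 (0.29 ± 0.25) and CDT1 (-0.12 ± 0.28) did not pass.

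Between RKO and A549 the effect differed for 2 replication genes, where 14.6% of all genes tested differed. Both fell further in RKO: GINS3 (-0.998 ± 0.32, adjusted p = 0.0664) and POLA1 (-0.67 ± 0.20, adjusted p = 0.0514). The count was 14 with the replicate block, where that fit found 26.9% of all genes to differ. It also hung on single libraries, with 0 genes without RKO normoxia replicate 1, 1 without RKO hypoxia replicate 1 or without any 1 of the 4 H460 libraries, and 6, 7 and 8 without A549 normoxia replicate 1, A549 hypoxia replicate 1 and A549 hypoxia replicate 2. The comparisons between lines share libraries and are not independent of each other.

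In normoxia most replication genes that differed between RKO and a lung line were higher in RKO. At an adjusted p under 0.1 and a fold over 1.5 the normoxic level differed between RKO and A549 for 21 genes, where 60.2% of all genes tested differed, 19 of them higher in RKO, against 26% of all genes. Between RKO and H460 it differed for 20, where 61.9% of all genes differed, 18 of them higher in RKO, against 27.2% of all genes. Between A549 and H460 it differed for 12, where 52.1% of all genes differed, 6 in each direction, against 26.9% of all genes higher in A549 and 25.2% higher in H460. CLSPN was higher in RKO than in A549 and H460 (1.42 ± 0.27 and 1.58 log2 units), as were MCM4 (1.22 and 1.81) and MCM2 (1.16 and 1.65). RPA3 was lower in RKO than in both lung lines (-1.04 and -1.03), POLD3 was lower in RKO than in A549 (-1.08 ± 0.15), and E2F1 was lower in RKO than in H460 (-0.59, adjusted p = 0.0496). Single libraries moved the smaller counts. The number of genes higher in H460 than in RKO, 2, became 6 without RKO normoxia replicate 2, 4 without H460 normoxia replicate 1 and 1 without RKO normoxia replicate 1. The 6 genes higher in A549 than in H460 became 2 without A549 normoxia replicate 1 and 13 without A549 normoxia replicate 2, and the 6 higher in H460 became 11 without A549 normoxia replicate 1.

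Levels between genes were compared as deposited RPKM, which divides by transcript length. In normoxia MCM7 and PCNA ranked first and second in RKO (201 ± 13.5 and 181 ± 9.32 RPKM, SD, n = 2), and PCNA and MCM7 did in A549 (180 ± 78.9 and 100 ± 15.1 RPKM) and H460 (138 ± 1.36 and 103 ± 4.59 RPKM). The gap between the 2 genes was near the size of a replicate SD in RKO and A549 and far beyond it in H460. In hypoxic H460 POLD2 ranked first with 34.9 ± 1.90 RPKM, ahead of MCM7 (24.2 ± 0.26 RPKM), and MCM3 moved from rank 4 with 63.3 ± 3.80 RPKM to rank 21 with 6.52 ± 0.73 RPKM. CLSPN, the second lowest in normoxic H460, was the lowest in hypoxic H460 with 0.312 RPKM in the mean of the 2 libraries.

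Genes with and without an E2F site in the promoter window were described side by side. In H460 18 of the 21 genes with a site and 12 of the 18 without were called lower, with median log2 fold changes of -2.22 and -0.99. Among all tested genes with a promoter sequence, 31% of those with a site and 25.6% of those without were called lower in H460. ORC3, CDT1 and LIG1 carried a site and were not called lower. MCM10 carried none by exact match and had the lowest value, and near matches were not counted for any gene. In RKO 10 of 21 and 3 of 18 were called lower, where 15.9% and 15% of all such genes were, with medians of -0.44 and -0.29. These splits were not tested.

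The remaining parts of the cell cycle were read from lists of other genes. Of all genes tested, 27.3% were called lower and 24.6% higher in H460. These shares were 15.1% and 18.8% in RKO and 0.456% and 2.22% in A549. Of 26 other replication factors, 16 were called lower and 1 higher in H460, 7 lower and 3 higher in RKO and 0 in A549. CHAF1B, a subunit of the chromatin assembly factor, TIMELESS, the partner of TIPIN, and the helicase RECQL4 were called lower in H460 (-2.65 ± 0.14, -1.71 ± 0.09 and -2.06 ± 0.11). POLE3 and MCMBP were called lower in RKO (-1.08 ± 0.15 and -0.89 ± 0.16), whereas POLD4, the small subunit of polymerase delta, went from 13.5 and 8.62 to 33.1 and 26.6 CPM there (1.43 ± 0.24, adjusted p = 0.00129). Of 8 nucleotide supply genes, 7 were called lower in H460, among them RRM2 of the ribonucleotide reductase (-1.24 ± 0.09) and DTYMK (-1.30 ± 0.10). In RKO DUT was called lower (-0.89 ± 0.16), RRM2B and TK1 were called higher (1.00 ± 0.15 and 0.61 ± 0.15), and RRM2 was not called (-0.13 ± 0.15). None of the 8 was called in A549.

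Of 28 genes of G1/S control, 15 were called lower and 7 higher in H460, 5 and 6 in RKO and 0 of 27 tested in A549. Over all genes tested, 27.3% were called lower and 24.6% higher in H460, and 15.1% and 18.8% in RKO. The count called higher in H460 and both counts in RKO were near these shares. Of the G1 and S phase cyclins, CCNE1, CCNE2, CCND1 and CCND3 were called lower in H460. CCNE1 went from 6.90 and 8.62 to 1.07 and 1.02 CPM (-2.89 ± 0.22), CCNE2 from 12.8 and 16.9 to 1.46 and 1.56 CPM (-3.30 ± 0.20) and CCND1 from 119 and 108 to 24.9 and 28.1 CPM (-2.09 ± 0.10). The value of CCND3 was -2.10 ± 0.12. CCND2, at 1.03 CPM or below, was called higher (1.44 ± 0.39) and CCNA2 was not called (-0.47 ± 0.09). CCND3, CCND2 and CCNA2 were named after their values were seen. E2F2, CDC25A and E2F8 were also called lower there (-3.57 ± 0.14, -3.46 ± 0.15 and -2.27 ± 0.16). The CDK inhibitors CDKN1A (p21) and CDKN1B (p27) were called higher in H460, from 44.5 and 36.2 to 165 and 136 CPM (1.90 ± 0.12) and from 22.8 and 22.7 to 73.0 and 69.0 CPM (1.64 ± 0.09). In RKO CCND1 was called lower (-1.02 ± 0.15), CDKN1A (0.63 ± 0.16), the repressor E2F7 (0.99 ± 0.16) and the inhibitors CDKN2C and CDKN2D (1.72 ± 0.25 and 2.01 ± 0.28) were called higher, and CCNE1 (-0.43), CCNE2 (0.32), CDKN1B (0.42) and E2F8 (0.24) were not called. In A549 CDKN1A and CDKN1B were not called (-0.13 ± 0.24 and 0.17 ± 0.22).

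Of 18 markers of mitosis and proliferation, 2 were called lower and 2 higher in H460, with a list median of -0.31, against -1.74 for the 45 replication genes. Both counts were below the shares of all genes tested there, 27.3% lower and 24.6% higher. BUB1 and UBE2C were called higher (0.75 ± 0.10 and 0.74 ± 0.09) and BUB1B lower (-0.73 ± 0.10). MKI67, the gene of the Ki-67 antigen, had 453 and 423 CPM in normoxia and 321 and 315 CPM in hypoxia (-0.46 ± 0.09, adjusted p = 0.000604), under the fold of 1.5. In RKO 4 of 18 were called lower and 0 higher, with CCNB1 (-1.16 ± 0.16), PLK1 (-0.97 ± 0.17) and CDC20 (-0.89 ± 0.15) at the lowest adjusted p, a list median of -0.13, and MKI67 at 0.13 ± 0.17. There 15.1% and 18.8% of all genes tested were called lower and higher. In A549 0 of 18 were called, with a list median of -0.16.

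**Figure D4:**
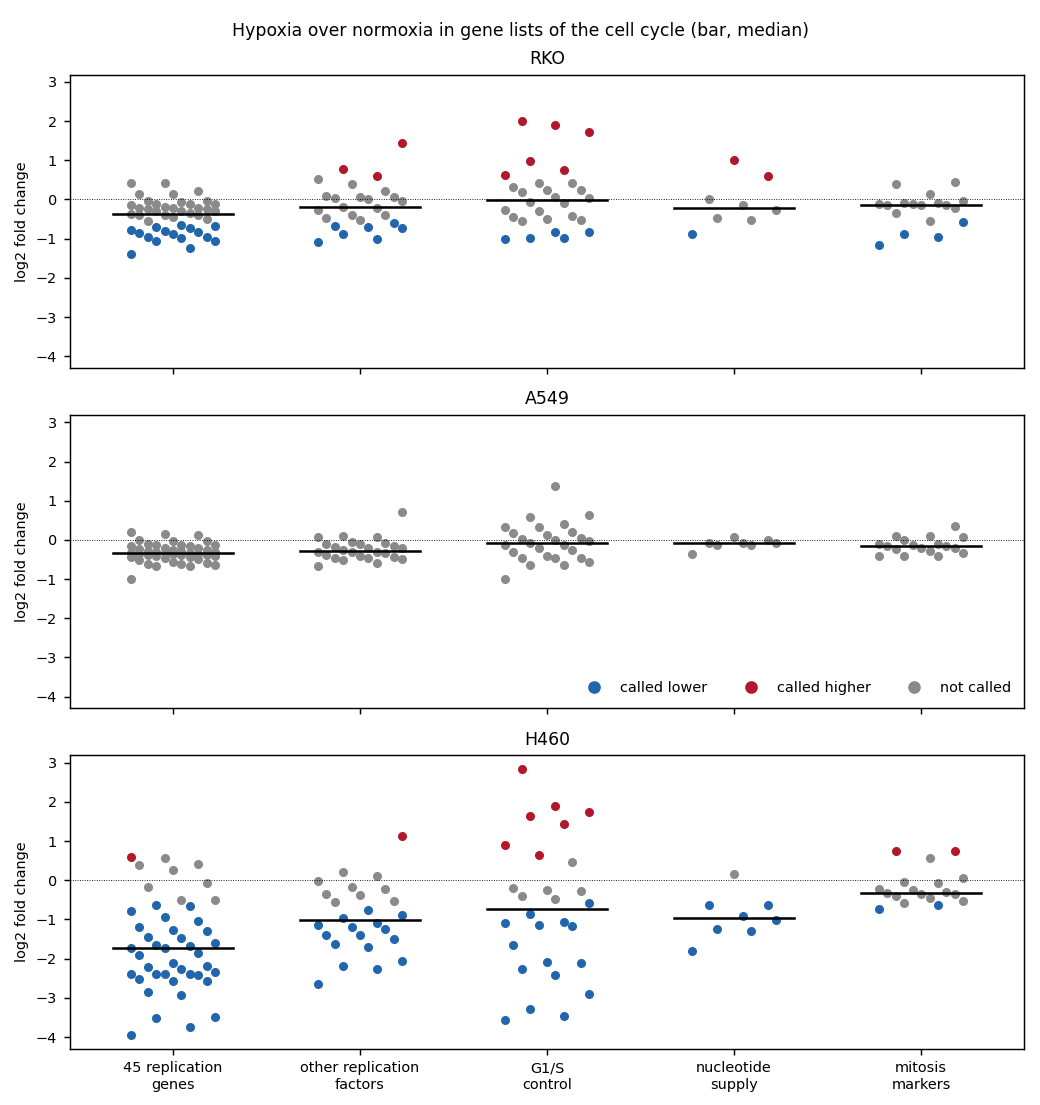
Log2 fold change of hypoxia over normoxia (y axis) of each gene in the 45 replication genes and 4 other lists, for RKO, A549 and H460. Points are genes (blue called lower, red called higher, grey not called) and bars are list medians, which in H460 run from -1.74 for the replication genes to -0.31 for the mitosis markers.

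Reads of replication genes with a named pseudogene in the annotation carry a limit of mapping. These were ORC1, DBF4, POLD2, PCNA, RFC3, RFC5, FEN1, RPA2, RPA3 and TIPIN, 10 of 45, since reads that fit a gene and its copy equally well were removed by the mapping quality filter.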

How the data were processed

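The authors sequenced strand-specific poly(A)+ libraries as single ends. According to the labels and methods, reads were trimmed at quality 10, aligned with TopHat2 2.0.13 to GRCh37/hg19 with the UCSC annotation, filtered at a mapping quality of 10 with SAMtools, marked for duplicates with Picard 1.129 and counted over exons with HTSeq 0.6.1 in the reverse-stranded, intersection-nonempty mode. The deposited values were counts per gene and library and RPKM values, and the deposited RPKM equalled the count divided by gene length and library total to a relative difference of 5e-12. Starts in the table were counted from 0 and are given here from 1.

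Counts were tested per line with edgeR 4.0.16 (quasi-likelihood F test, TMM scaling) in R 4.3.3 on genes over 0.5 CPM in at least 2 of 4 libraries, with Benjamini-Hochberg adjustment over all tested genes. A gene was called at an adjusted p under 0.1 and a fold change over 1.5. Adjusted p values come from edgeR except where DESeq2 or limma is named, ± is the standard error of a log2 fold change or the SD of a level, and CPM values are scaled within a line. The joint fit held the 6 group means of 12 libraries. A member's log2 fold change had a median standard error of 0.16 (RKO), 0.24 (A549) and 0.10 (H460). The scripts were tested on simulated counts.

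Labels gave groups the same replicate numbers. Deviations of same-numbered libraries from their group means correlated at 0.339 in RKO, 0.343 in A549 and 0.115 in H460 over all tested genes. Each was over the minimum of 0.1, although no label says why. Over the replication genes alone these correlations were 0.276, 0.684 and -0.0381 in the same order, so H460 fell below that minimum. The numbers were taken to pair libraries only in the replicate block and in ratios within replicate numbers. The main fits held no replicate term, so the main calls, those in A549 included, leave any pairing out. Alternatives were RLE and library size scaling, other filters, DESeq2 1.42.0, limma 3.58.1 on log2(RPKM + 0.1) and log2(RPKM + 1), the replicate block, a joint fit, other thresholds, the normoxia libraries alone and leaving out each library. Ratios within replicate numbers were added after seeing the data. The members and lists were chosen with earlier results of these data known. Named were all members, with library values for the 6 lowest and 2 highest fold changes per line, the MCM genes, PCNA and E2F1. Of the other lists, the 3 called genes of lowest adjusted p per line and 9 further genes (CCNE1, CCNE2, CCND1, CDKN1A, CDKN1B, E2F7, E2F8, RRM2 and MKI67) were named, except some list genes that are not reported here. Further library values were given where a comparison between members turned on them. Promoters were RefSeq sequences of GRCh38.p14 placed on GRCh37 by exact match. A gene counted as holding a motif when any of its listed promoters did.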

Additional observations from a re-analysis of the deposited data

Results flagged for a closer look

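The effect of hypoxia differed between H460 and another line for 39 of the 45 replication genes (interaction in the joint edgeR fit, adjusted p under 0.1, from 1.61e-05 to 0.0938). Taking the lowest adjusted p among the pairs of lines is more lenient than 1 pair alone, and the share of all genes under that rule was not computed. In the test of all lines together 37 of the 45 passed, where 48.8% of all genes tested did. Values are those of whichever pair had the lower adjusted p, written as the log2 fold change in RKO or A549 minus that in H460, so that a positive value means a lower value in H460. For 19 genes this pair was RKO and H460. The difference was 3.93 for E2F1, 3.50 for MCM10, 3.39 for CLSPN, 2.86 for GINS4, 2.20 for CDC45, 2.18 for POLD3, 2.14 for FEN1, 1.98 for RFC2 and 1.87 for CDC6. It was smaller, but still past the threshold, at 1.80 for CDC7, 1.75 for POLE, 1.66 for POLA2, 1.46 for TIPIN, 1.39 for ORC6, 1.03 for POLD1, 0.89 for RFC5 and 0.86 for PRIM1. It was negative at -0.79 for RFC1 and -0.56 for ORC4. For 20 genes the pair was A549 and H460. The difference was 3.14 for MCM6, 2.55 for MCM3, 2.32 for MCM4, 2.31 for PCNA, 2.29 for GINS1, 2.27 for GINS2, 2.06 for POLE2, 1.98 for MCM5 and 1.88 for GINS3. Smaller differences were 1.53 for POLA1, 1.43 for RFC3, 1.42 for MCM2, 1.38 for MCM7, 1.08 for RFC4, 0.82 for ORC5, 0.82 for RPA3, 0.79 for RPA2 and 0.51 for POLD2. It was negative at -0.83 for ORC1 and -0.46 for DBF4. The negative differences, those of RFC1, ORC4, ORC1 and DBF4, did not pass with library size alone. Line and medium cannot be told apart in these differences, nor can tissue of origin in those between RKO and H460.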

How the results depend on the processing

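No result changed direction after being called. The medians of the 45 genes stayed below 0 under every alternative and with each library left out, from -0.42 to -0.27 in RKO, -0.72 to -0.06 in A549 and -2.09 to -1.63 in H460, and the count called lower in H460 stayed between 32 and 39. The replicate block gave 7 genes lower in A549 in place of 0 and 14 in place of 2 that differed between RKO and A549, where the share of all genes rose from 0.456% to 5.07% and from 14.6% to 26.9%. It changed no other member's call within a line and moved no other count by over 1.5 times. For genes lower in A549 (0), no filter on low counts gave 1, DESeq2 1 and the joint fit 4 (TIPIN, ORC5, POLE and RFC3), and leaving out 1 library 0 to 20. DESeq2 called 1.85% of all genes lower in A549, and the shares of all genes without the filter and in the joint fit were not computed. For genes lower in RKO (16), a fold over 2 left 4. For genes higher in RKO (0), dropping the fold minimum gave 1, and leaving out 1 library 0 to 1. For genes higher in H460 (1), RLE scaling, DESeq2 and the joint fit gave 2 each, no fold minimum 5, and library size alone, a fold over 2 and limma with either pseudocount 0, with 0 to 2 on leaving out a library. For differences between RKO and A549 (2), library size alone gave 1, no filter 7, DESeq2 4, limma with either pseudocount 1 and an adjusted p under 0.05 gave 0, with 0 to 8 on leaving out a library. In normoxia a fold over 2 left 7 of 19 genes higher in RKO than in A549, 9 of 18 higher in RKO than in H460, 1 of 2 higher in H460 than in RKO, 1 of 6 higher in A549 than in H460 and 0 of 6 higher in H460 than in A549. No fold minimum gave 5, 11 and 12 for the last 3. Library size alone, no filter and limma with either pseudocount gave 1 gene higher in H460 than in RKO. Leaving out a library gave 1 to 6, 2 to 13 and 4 to 11 for the same 3 counts. The cause of these shifts was not tested, and no share of all genes at a fold over 2 was computed. With 2 libraries per group, where the rest are left with 1, the lone library is assumed to vary like the others of the fit. All 45 genes passed the filter on low counts.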

Other observations

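Other motifs in the promoter windows were counted in the same way. The hypoxia response element core (ACGTG or GCGTG) was found in 30 of 39 replication promoters (76.9%), against 52.4% of all genes with a promoter and 69.9% of such genes tested in H460, and 22 of the 30 genes with it and 8 of the 9 without it were called lower in H460, where 25.9% and 26.1% of all tested genes with and without it were. The E-box CACGTG, which contains ACGTG, was found in 5 (12.8%, against 8.77% of all genes and 12.6% of those tested in H460). Of these 5, 3 were called lower in H460, as were 27 of the 34 without it. Among all tested genes with a promoter sequence, 28.1% with the E-box and 25.7% without it were called lower there. The CHR element TTTGAA, known from promoters of mitosis genes, was found in 1, DBF4 (2.56%, against 18.2% of all genes and 13.7% of those tested in H460). These counts describe letters in a window and were not tested.

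Within replicate numbers, both hypoxia to normoxia ratios were below 1 for 39 replication genes in RKO, 36 in A549 and 40 in H460, where 41.4%, 36.5% and 46.8% of all genes tested had both ratios below 1. For replicate 1 the median of the 45 log2 ratios was -1.71 in H460, -0.42 in RKO and -0.27 in A549. For replicate 2 it was -1.75, -0.36 and -0.46 in the same order.

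NKX2-1, a lung lineage factor, was at 0.0654 and 0 CPM in normoxic H460 and 3.33 and 3.12 CPM in hypoxic H460. CD14 fell by 1.12 on the log2 scale in H460, to 5.02 and 5.04 CPM, where PTPRC, CD3E and HBB were at or near 0. The part of these cell type markers in the replication values was not tested.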
